A study of Mus musculus with 20 samples.

Results

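The effect of diet at week 18 was examined in male mice, in ascending aorta carrying an atherosclerotic lesion. It is the comparison of 3 arrays labelled high fat with 3 arrays labelled chow, 6 of the 20 arrays of the study, chosen by their titles. All animals, on either diet, carry the same double knockout, which the labels write as Apobtm2Sgy/Ldltm1Her. The label for age reads 18W in all 6 samples, and the design text calls the high fat diet rich in cholesterol. The other groups of the study were high fat and chow at weeks 6 and 30, with 3 arrays each, and chow at week 0, with 2 arrays. The labels do not say how many animals gave RNA to an array. Only the labels say that replicates are separate samples, and the spread behind the p-values may therefore be technical in part.

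MicroRNAs (miRNAs) are short RNAs that pair with messenger RNAs through a stretch near their 5′ end, the seed, and lower the output of those targets. In the arterial wall they are known for keeping smooth muscle contractile, for restraining inflammation in endothelium, and for controlling cholesterol transport in macrophages and liver. Loss of the LDL receptor together with a change in apolipoprotein B raises cholesterol in the blood of mice, and a fat-rich diet adds to the lesions that form. Each RNA sample was labelled with Cy3 and hybridised in 1 colour to an Agilent mouse miRNA array, which reports the brightness (intensity) of spots that each hold a probe for 1 miRNA.

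The sequences of the 5 higher and the 4 lower miRNAs with the smallest p at week 18 are shown here, so that their seeds (bases 2 to 8, in capitals) can be read beside the values. They are mature sequences from RefSeq, assembly GRCm38.p6, matched by name, 5′ to 3′. The first 5 lay higher and the next 4 lower in high fat at week 18.
miR-6401: uUACACUCcaguggugucgggu
miR-382-5p: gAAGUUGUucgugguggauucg
miR-8119: gAGGAGAGggagcuaggguc
miR-7028-5p: uGGGCUGAggcuugggucaggag
miR-7a-5p: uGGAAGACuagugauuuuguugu
miR-455-3p: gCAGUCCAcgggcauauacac
miR-193b-3p: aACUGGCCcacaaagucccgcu
miR-182-5p: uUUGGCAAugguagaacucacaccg
miR-378b: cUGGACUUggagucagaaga
The next set is taken from the 7 miRNAs called in the test of the diet difference between weeks 6 and 18. Of these, miR-181a-1-3p and miR-363-3p were tested only because all week 6 chow arrays detected them. They had to be high there, so their calls support nothing. The call of miR-181d-5p was lost in 21 of 27 alternative settings. miR-181b-5p and miR-181d-5p share the seed ACAUUCA, and miR-181a-1-3p is the minor arm of another hairpin of the same family.
miR-128-3p: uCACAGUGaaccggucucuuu
miR-181b-5p: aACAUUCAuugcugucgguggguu
miR-181d-5p: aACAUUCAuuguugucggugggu
miR-181a-1-3p: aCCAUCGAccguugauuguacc
miR-363-3p: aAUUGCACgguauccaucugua
The last pair, miR-144-3p and miR-5126, lie far apart in G and C content, which is used in the section on base composition.
miR-144-3p: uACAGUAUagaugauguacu
miR-5126: gCGGGCGGggccgggggcgggg

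Of 1881 mature miRNAs on the array, 609 were tested, namely those that all arrays of 1 or more groups detected. Detected means that at least 0.5 of the usable spots of 1 probe were well above background. Values are given as log2 intensity after scaling each array to its 75th percentile, with a floor at 3.09, and the 3 values of a diet always stand in the order of replicates 1, 2 and 3. Detection reached 645, 556 and 328 miRNAs on the high fat arrays, against 316, 492 and 610 on the chow arrays. The diets overlapped in this count (high fat minus chow 37.0, exact permutation test, 2-sided, p = 0.7, the smallest possible being 0.1). Of the 609 miRNAs, 215 were detected on all 6 arrays.

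The arrays of 1 diet were no more alike than arrays of different diets. Over the 192 miRNAs detected on all 20 arrays, the SD of the log2 difference between a pair of arrays had a median of 1.24 for pairs within high fat (3 pairs, 1.02 to 1.80) and 1.53 within chow (3 pairs, 1.10 to 1.73). It was 1.27 for the 9 pairs of different diets (0.51 to 2.05). High fat replicate 2 lay nearest to chow replicate 3 (SD 0.51), and high fat replicate 3 lay nearest to high fat replicate 2 of week 30 (SD 0.19), with which it is near-identical. The same array also had the noisiest negative controls (SD 22.3 against at most 2.53 on the others) and lay on slide 3, while the other 5 lay on slide 2. For 5 of the 6 arrays the position on the slide in the description differed from that in the file, and for replicate 1 of either diet the position in the description would switch the diet. The median SD within a group, over the tested miRNAs, was 0.92 in high fat and 0.92 in chow at week 18, against 0.17 to 0.82 in the other groups. Before scaling, chow replicate 1 was by far the dimmest of the 6, with a 75th percentile of 183 against 884 to 1653 on the other 5. The scaling therefore raised its signals the most. Whether this bears on the miRNAs for which it stands apart was not tested.

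No miRNA passed the test between the diets at week 18. With limma over all 20 arrays and Benjamini-Hochberg adjustment at 0.05, 0 of 609 were called (0%), and the smallest adjusted p was 0.954. At an unadjusted p under 0.05 stood 7 miRNAs, 5 higher in high fat (0.821% of those tested) and 2 lower (0.328%). That count of 7 moved with single arrays, to 80 without high fat replicate 2, 62 without chow replicate 1 and 13 without chow replicate 3, and with no scaling it was 84, none of them passing after adjustment. Other settings lowered the count, to 1 with only the week 18 arrays in the fit and 3 with the floor lower by 1. It was 2 with the near-identical arrays of other weeks averaged. The difference, high fat minus chow, was positive for 411 and negative for 193, with a median of 0.26. That median depended on the scaling, as it was 0.92 with no scaling, 0.08 with quantile normalization, -0.15 with the percentile taken over all miRNAs and -0.40 with normexp background correction.

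The design left room for sizeable differences. The SE of a difference had a median of 0.61 (0.28 to 1.75), and the 95% interval lay between -2 and 2 for 404 of the 609 miRNAs and between -1 and 1 for 45. Among the 215 detected on all 6 arrays it lay between -1 and 1 for 11. A difference of less than 0.5 in size was measured for 355 miRNAs and one of more than 1 for 69. The SEs and intervals rest on a spread shared by all 7 groups. The week 18 groups had the widest spread of these (median SD 0.92 in each diet). Intervals may therefore be too narrow for miRNAs that varied more at week 18 than in the other groups.

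**Figure D1:**
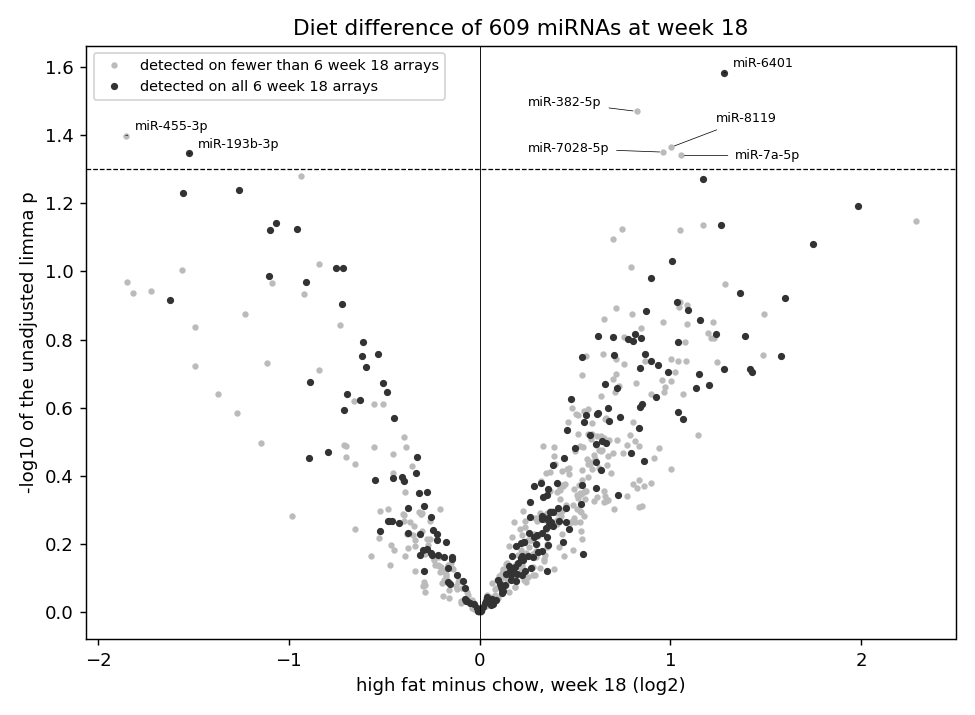
Each point is 1 of the 609 tested miRNAs, with the week 18 difference, high fat minus chow (log2), on the x axis and -log10 of the unadjusted limma p on the y axis. Black points were detected on all 6 week 18 arrays, grey points on fewer, and the dashed line marks an unadjusted p of 0.05. Above the line stand 5 miRNAs higher and 2 lower in high fat, all of them named, and none passed after adjustment (smallest adjusted p 0.954).

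The miRNA with the smallest p was miR-6401, which was detected on all 6 arrays. Its log2 signals were 6.97, 5.80 and 7.37 in high fat, against 5.93, 4.99 and 5.38 in chow. High fat replicate 2 lay just below chow replicate 1, so the diets overlapped, and the difference was 1.28 (SE 0.53).

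miR-382-5p belongs to the imprinted Dlk1-Dio3 cluster, a run of many miRNAs expressed from the maternal chromosome. Its log2 signals were 4.16, 4.08 and 3.70 in high fat, against 3.09, 3.17 and 3.21 in chow. The groups did not overlap, but the chow signals lay at or just above the floor and 2 of the 3 were not detected. On high fat replicate 3 it was not detected either, its 3.70 lying below the lowest signal detected on that array (4.86). Its difference was 0.82 (SE 0.36).

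miR-8119, whose gene lies within Lck, and miR-7028-5p, within Tchp in GRCm38.p6, behaved alike from array to array. miR-8119 read 6.20, 5.35 and 6.29 in high fat, against 5.08, 4.77 and 4.98 in chow on the log2 scale, a difference of 1.00 (SE 0.46). miR-7028-5p read 6.21, 5.18 and 6.29 in high fat, against 4.96, 4.91 and 4.92 in chow, a difference of 0.96 (SE 0.44). For both, the 3 chow arrays lay close together and high fat replicates 1 and 3 stood more than 1 above them, with replicate 2 in between.

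miR-7a-5p, a conserved miRNA known for repressing the Egf receptor and for its binding to the circular RNA Cdr1as, read 4.59, 4.84 and 3.91 in high fat, against 3.09, 3.58 and 3.51 in chow. All 3 high fat signals lay above all 3 chow signals, with a difference of 1.06 (SE 0.49), and it was detected on 2 arrays of each diet.

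The next 5 in order of p among those higher in high fat all overlapped between the diets. miR-1897-5p differed by 1.17 (SE 0.57), miR-7022-5p by 1.17 (SE 0.61) and miR-721 by 1.26 (SE 0.66). The largest differences of the 10 were those of miR-7015-5p and miR-3474. miR-7015-5p read 9.78, 6.64 and 8.36 in high fat, against 8.05, 3.92 and 6.86 in chow (difference 1.98, SE 1.00). miR-3474 read 9.84, 6.60 and 8.58 in high fat, against 8.32, 3.09 and 6.75 in chow (difference 2.29, SE 1.19). In both of these, replicate 2 was the lowest of its diet, and replicate 1 the highest.

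Among the miRNAs lower in high fat, miR-455-3p had the smallest p. It is encoded within the collagen gene Col27a1 and known for promoting brown fat formation in mice. Its log2 signals were 4.06, 5.44 and 3.09 in high fat, against 7.70, 6.04 and 4.42 in chow, with a difference of -1.85 (SE 0.83). High fat replicate 2 lay above chow replicate 3, so the diets overlapped, and chow replicate 1 was the highest of the 6.

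miR-193b-3p, another miRNA of brown fat, read 7.65, 9.66 and 9.60 in high fat, against 11.85, 10.53 and 9.10 in chow. Its difference was -1.52 (SE 0.71). High fat replicate 1 was the lowest and chow replicate 1 the highest array, while the other 4 lay between 9.10 and 10.53.

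The same order was seen in the miR-378 group, which is known for its part in mitochondrial energy metabolism. miR-378b read 7.29, 9.87 and 9.28 in high fat, against 10.78, 10.26 and 9.18 in chow (difference -1.26, SE 0.62). miR-378d read 8.02, 10.17 and 9.50 in high fat, against 10.90, 10.43 and 9.55 in chow (difference -1.07, SE 0.56). In each, high fat replicate 1 stood lowest, chow replicate 1 highest, and the remaining 4 arrays overlapped.

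The remaining 5 of the 10 lower miRNAs were miR-182-5p (-0.94, SE 0.45), miR-129-2-3p (-1.56, SE 0.77), let-7b-5p (-0.96, SE 0.50), miR-148b-3p (-0.84, SE 0.48) and miR-210-3p (-0.72, SE 0.41), beside miR-378a-3p, which is given with the adipose list. let-7b-5p, of the family that marks differentiated cells, read 10.54, 11.37 and 11.03 in high fat, against 13.05, 11.39 and 11.36 in chow. Chow replicate 1 was the high array, and the other 5 lay between 10.54 and 11.40. miR-129-2-3p read 3.45, 4.11 and 5.28 in high fat, against 7.21, 6.76 and 3.54 in chow, so chow replicate 3 lay among the high fat arrays.

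**Figure D2:**
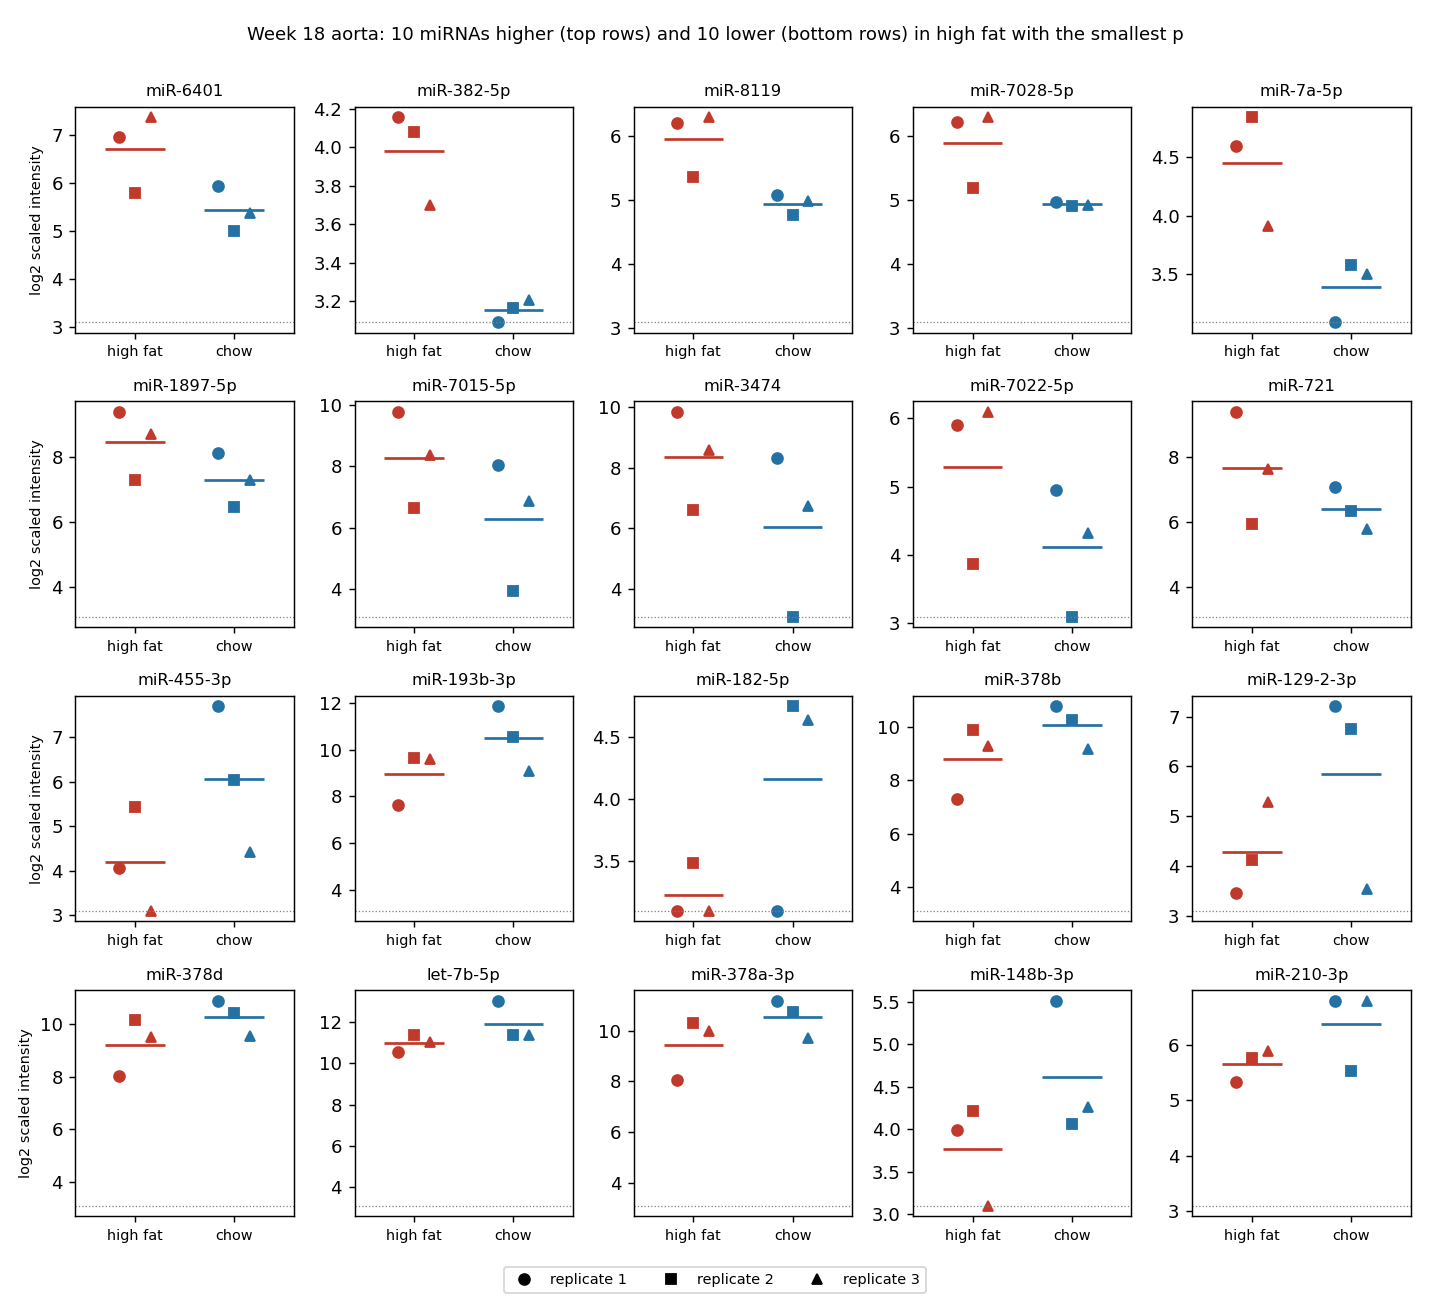
Log2 scaled intensity of the 10 miRNAs higher in high fat (top 2 rows) and the 10 lower (bottom 2 rows) with the smallest p, high fat left and chow right in each panel. Each symbol is 1 array, its shape the replicate number, the horizontal line the mean of 3 arrays, and the dotted line, where in range, the floor at 3.09. Circles (replicate 1) lie at the extremes of most lower miRNAs, lowest in high fat and highest in chow for miR-193b-3p and the miR-378 group.

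No overlap between the diets was seen for 7 miRNAs higher in high fat (1.15% of those tested) and for 1 lower (0.164%). Beside the 4 described above, the higher ones were miR-181b-5p, miR-6898-5p and miR-6971-5p, and the lower one was miR-193a-5p. miR-6971-5p and miR-193a-5p were named after their values were seen. miR-6898-5p was the one among them detected on all 6 arrays, with 9.02, 8.61 and 8.63 in high fat, against 8.54, 7.56 and 8.55 in chow and a difference of 0.54 (SE 0.38). miR-193a-5p lay at the floor on every high fat array, against 3.94, 3.88 and 3.12 in chow.

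Of the listed smooth muscle and endothelial miRNAs, 7 of 9 and 9 of 12 were detected on all 6 arrays of week 18. Over the whole array this held for 215 of 1881. Lists not particular to this tissue had shares as high, 8 of 10 for let-7 and 9 of 10 for the GC-rich list. The smooth muscle list also shares miR-1a-3p and miR-133a-3p with striated muscle, and miR-21a-5p with fibroblasts. The smooth muscle and endothelial lists had medians near 0. miR-143-3p and miR-145a-5p, which keep smooth muscle in its contractile state, were detected on all 6 arrays. miR-143-3p read 9.63, 10.84 and 10.79 in high fat, against 9.38, 10.33 and 10.997 in chow (difference 0.18, SE 0.54). miR-145a-5p read 9.25, 9.004 and 9.19 in high fat, against 9.73, 8.45 and 9.16 in chow (difference 0.03, SE 0.34). In both the diets overlapped throughout. Of the 9 listed smooth muscle miRNAs 8 were tested, 5 with a positive and 3 with a negative difference, with a median of 0.05 beside 0.26 over all miRNAs and none called.

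The mean of the endothelial list had the narrowest range over the 6 arrays among the 20 lists. All 12 members were tested, 6 positive and 6 negative, with a median of -0.02, and its mean signal was 8.44, 8.53 and 8.12 in high fat, against 8.15, 8.34 and 8.57 in chow. miR-126a-3p, which lies within the endothelial gene Egfl7 and restrains the adhesion molecule Vcam1, read 10.82, 11.82 and 11.18 in high fat, against 9.41, 11.93 and 11.42 in chow. Chow replicate 1 was the low array, and the difference was 0.35 (SE 0.60). miR-23a-3p and miR-24-3p, from 1 cluster, differed by 0.04 (SE 0.31) and 0.03 (SE 0.34), with 95% intervals of -0.61 to 0.69 and -0.69 to 0.74. Intervals of that width hold changes of up to about 0.7 in either direction.

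miR-221-3p and miR-222-3p, a pair that drives smooth muscle growth by repressing the cell cycle inhibitor p27, differed by -0.06 (SE 0.43) and -0.22 (SE 0.62). The flow-responsive miRNAs miR-92a-3p and miR-10a-5p, known for acting on Klf2 and on NF-kB signalling in endothelium, differed by -0.08 (SE 0.71) and 0.44 (SE 0.46). The disturbed flow list, whose members respond to irregular shear, had 13 of 14 tested, 8 positive and 5 negative, with a median of 0.18. Its mouse-specific member miR-712-5p, which comes from the spacer of the ribosomal RNA precursor, read 7.13, 4.82 and 4.50 in high fat, against 5.40, 4.32 and 5.11 in chow. High fat replicate 1 stood apart from the other 5 arrays. miR-23b-3p of this list differed by -0.33 (SE 0.34).

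Fibroblast miRNAs did not separate by diet either. Of 10 listed, 9 were tested, 4 positive and 5 negative, with a median of -0.09. miR-21a-5p, which promotes fibrosis, read 10.39, 10.52 and 9.99 in high fat, against 9.13, 10.12 and 11.07 in chow (difference 0.19, SE 0.78). The miR-29 family, which represses collagen genes and shares the seed AGCACCA, differed by -0.09 (SE 0.35) for miR-29a-3p, -0.48 (SE 0.77) for miR-29b-3p and 0.01 (SE 0.60) for miR-29c-3p. miR-29b-3p read 7.77, 10.71 and 9.97 in high fat, against 8.62, 10.51 and 10.74 in chow. Both replicate 1 arrays were the low ones for this miRNA, whichever their diet.

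White blood cell miRNAs varied more from array to array than between the diets. In whole tissue, fewer cells of a type and less RNA per cell cannot be told apart. miR-142a-3p, found in all white blood cells, read 8.89, 7.72 and 6.35 in high fat, against 4.95, 7.43 and 8.48 in chow. It was the lowest on chow replicate 1 and the highest on high fat replicate 1, and its difference was 0.70 (SE 1.02). miR-223-3p, the granulocyte and monocyte miRNA, read 8.65, 7.49 and 7.11 in high fat, against 6.87, 7.56 and 7.70 in chow (difference 0.37, SE 0.55). Of the 6 macrophage and myeloid miRNAs 4 were tested, all positive, with a median of 0.28, and the list mean was 6.98, 6.26 and 4.91 in high fat, against 4.50, 5.97 and 6.73 in chow. The ranges overlapped almost fully. miR-142a-5p differed by 0.19 (SE 0.93). miR-223-5p and miR-511-5p were detected on none of the 6 arrays.

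The lymphocyte list had 6 of 7 members tested, 5 positive and 1 negative, with a median of 0.39. miR-150-5p, the miRNA of mature lymphocytes that represses Myb, read 10.28, 6.96 and 5.56 in high fat, against 7.82, 6.70 and 7.21 in chow. High fat replicate 1 exceeded every other array by more than 2 on the log2 scale, and the difference was 0.35 (SE 1.12). miR-342-3p, encoded within Evl, followed the same order with 9.32, 6.46 and 5.58 in high fat, against 8.0001, 5.94 and 6.54 in chow (difference 0.29, SE 1.01). miR-181a-5p differed by -0.65 (SE 0.71).

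High fat replicate 1 was also the high array for miRNAs that NF-kB induces. miR-155-5p, a miRNA of activated macrophages and lymphocytes, read 8.04, 4.82 and 4.47 in high fat, against 5.31, 4.22 and 5.06 in chow (difference 0.92, SE 0.96). miR-146a-5p, which limits NF-kB signalling by repressing Traf6 and Irak1, read 7.60, 5.38 and 3.09 in high fat, against 3.96, 4.54 and 5.61 in chow (difference 0.66, SE 0.90). Of 6 listed, 3 were tested, all positive, with a median of 0.66, and the third, miR-146b-5p, differed by 0.30 (SE 0.48). Without high fat replicate 1 the list's median was -0.21, and that of the lymphocyte list -0.30. None of the 3 passed. With normexp background correction the medians of the myeloid, lymphocyte and NF-kB lists were -0.34, -0.36 and -0.16, below 0 like that of all miRNAs (-0.40).

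Red cell miRNAs pointed to no diet difference that held across arrays. miR-451a, the main miRNA of red blood cells, read 11.35, 11.68 and 10.99 in high fat, against 8.70, 12.26 and 11.70 in chow. Chow replicate 1 lay more than 2 below the other 5 arrays, and the difference was 0.45 (SE 0.73). miR-16-5p differed by 0.64 (SE 0.71) and miR-144-3p by -0.65 (SE 1.13). Of 5 listed, 4 were tested, with 2 positive, 2 negative and a median of 0.03, and without chow replicate 1 the median was -0.62.

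Striated muscle miRNAs were widely spread. miR-1a-3p, which drives heart and skeletal muscle differentiation, read 7.19, 12.57 and 10.28 in high fat, against 6.76, 9.66 and 11.99 in chow. miR-133a-3p, from the same hairpin clusters, read 7.95, 11.91 and 9.36 in high fat, against 9.09, 9.003 and 10.94 in chow. Both peaked on high fat replicate 2, with chow replicate 3 next, and the differences were 0.54 (SE 1.27) and 0.06 (SE 1.01). miR-133b-3p differed by 0.07 (SE 1.03). All 5 tested members of 9 listed were positive, with a median of 0.34 that 1 array could turn, to -0.97 without high fat replicate 2 and -0.32 without chow replicate 1, against 1.17 without high fat replicate 1 or without chow replicate 3. The list mean was 6.38, 10.53 and 8.11 in high fat, against 6.35, 7.91 and 9.92 in chow. Of the heart miRNAs, miR-208b-3p was detected on none of the 6 arrays, miR-208a-3p on 1 array of each diet and miR-499-5p on 1 high fat array. The part of muscle tissue in these values was not tested.

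The adipose list stood lowest, with all 8 tested members of 10 negative and a median of -1.10, beside 0.26 over all 609 miRNAs. None of the 8 passed, and 2 of them, miR-455-3p and miR-193b-3p, had an unadjusted p under 0.05. The 8 are not separate signals, as they hold both arms of miR-378a and both arms of miR-455. They also hold miR-203-3p, a member of the epithelium list too, whose difference of -1.49 leaned on chow replicate 3 (9.84). The list mean was 5.80, 7.62 and 6.96 in high fat, against 7.71, 8.21 and 7.69 in chow, so that only high fat replicate 2 came near the chow arrays. miR-378a-3p, from an intron of Ppargc1b in mice, read 8.06, 10.31 and 9.98 in high fat, against 11.19, 10.73 and 9.72 in chow (difference -1.10, SE 0.58). miR-365-3p, from the same cluster as miR-193b, read 8.36, 9.03 and 8.86 in high fat, against 9.16, 9.64 and 8.81 in chow (difference -0.45, SE 0.39). miR-193a-3p, which shares the seed ACUGGCC with miR-193b-3p, read 5.42, 8.79 and 8.62 in high fat, against 6.85, 9.59 and 8.76 in chow (difference -0.79, SE 0.81). On chow replicate 1 the signal of miR-193b-3p was the highest of the 6 arrays and that of miR-193a-3p the lowest of the 3 chow arrays.

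The size of the adipose difference depended on high fat replicate 1. The median was -0.35 without that array and -0.86 without chow replicate 1, and -1.61 to -1.001 with 1 of the other 4 left out. It was -0.36 without replicate 1 of both diets, and -0.09 without these and high fat replicate 3. With the diet of replicate 1 taken from the slide position in the description, it was 0.36. Within slide 2 it was -1.31, and it was negative under each scaling tried (-1.60 to -0.10). The amount of fat around the vessel in each sample was not measured here.

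Cholesterol and lipid regulators had no common direction. Of 19 listed, 14 were tested, 7 positive and 7 negative, with a median of -0.11. miR-33-5p, which lies within the sterol regulator Srebf2 and represses the cholesterol exporter Abca1, was detected on 1 of the 6 arrays and was not tested. miR-27a-3p differed by -0.61 (SE 0.42) and miR-30c-5p, which represses the lipid transfer protein Mttp, by -0.48 (SE 0.39). miR-26a-5p differed by -0.33 (SE 0.38). Within the family that shares the seed CAGUGCA, miR-148b-3p differed by -0.84 (SE 0.48), while miR-148a-3p, known for repressing the LDL receptor, differed by 0.16 (SE 0.65) and miR-152-3p by 0.33 (SE 0.73). miR-148b-3p read 3.99, 4.21 and 3.10 in high fat, against 5.51, 4.06 and 4.26 in chow, and chow replicate 1 was the high array. The probes of miR-148b-3p agreed poorly over the arrays of the study (lowest correlation 0.46), which limits this contrast.

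miR-122-5p, the hepatocyte miRNA, was well above background on 2 high fat arrays and on no chow array. Its log2 signals were 4.22, 3.09 and 5.45 in high fat, against 3.09, 3.32 and 3.09 in chow. Each chow array was set to the higher of its own signal and the lowest signal detected on it, and the high fat mean lay 1.81-fold above their mean. High fat replicate 2 entered at the floor, so this is not a strict lower bound. The difference did not pass (limma, adjusted p = 0.954). Of 5 liver miRNAs 4 were tested, 3 positive and 1 negative, with a median of 0.35. That median was -0.25 without chow replicate 1, 0.87 without high fat replicate 1 and -0.52 with normexp. miR-192-5p, miR-194-5p and miR-101a-3p of this list differed by 0.52 (SE 0.48), -0.02 (SE 0.49) and 0.18 (SE 0.93).

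The let-7 family, 10 miRNAs that share the seed GAGGUAG, had 4 positive and 6 negative differences and a median of -0.32. let-7c-5p read 11.53, 11.82 and 11.18 in high fat, against 13.10, 11.82 and 11.77 in chow (difference -0.72, SE 0.45). let-7a-5p read 11.53, 11.83 and 10.87 in high fat, against 12.64, 11.73 and 11.69 in chow (difference -0.61, SE 0.44). Chow replicate 1 stood high in let-7a-5p, let-7b-5p and let-7c-5p, but lowest of all 6 arrays in let-7g-5p, which read 8.76 there. let-7g-5p differed by 0.29 (SE 0.54). Close relatives of this kind can bind each other's probes.

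miR-210-3p, the miRNA that low oxygen induces through Hif1a, read 5.33, 5.78 and 5.90 in high fat, against 6.81, 5.53 and 6.81 in chow. Its difference was -0.72 (SE 0.41), and chow replicate 2 lay within the high fat range. It was the 1 tested member of the 2 listed for hypoxia. In the p53 and senescence list 5 of 10 were tested, 2 positive and 3 negative, with a median of -0.02. miR-34a-5p, a direct target of p53, read 6.82, 7.79 and 6.26 in high fat, against 8.39, 7.04 and 7.52 in chow (difference -0.70, SE 0.56), and its diets overlapped. miR-34b-5p, with the same seed GGCAGUG, was bright on 1 array of each diet, 7.93 on high fat replicate 2 and 8.87 on chow replicate 3, and at most 3.42 on the other 4.

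High fat replicate 2 and chow replicate 3 were also the arrays with the brightest epithelial miRNAs. Of 11 listed, 9 were tested and all 9 were negative, with a median of -0.57. The list mean was 3.57, 5.37 and 3.46 in high fat, against 3.16, 3.77 and 7.39 in chow. The direction rested on chow replicate 3, and without it the median was 1.06. miR-203-3p, a miRNA of stratified epithelium, read 4.76, 5.65 and 5.02 in high fat, against 3.68, 6.39 and 9.84 in chow (difference -1.49, SE 0.98). miR-205-5p read 3.97, 5.57 and 3.09 in high fat, against 3.09, 3.09 and 9.39 in chow (difference -0.98, SE 1.504) and miR-200b-3p read 3.93, 6.41 and 3.09 in high fat, against 3.09, 3.09 and 7.82 in chow (difference -0.19, SE 1.42). All 3 had their highest signal on chow replicate 3. The part of epithelial tissue in these samples was not tested.

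Neuronal miRNAs were dim, and no listed one was detected on all 6 arrays. Of 9 listed, 5 were tested, 4 positive and 1 negative, with a median of 0.42. miR-124-3p, which defines neurons, was detected on 1 high fat array. miR-137-3p, known from the brain, read 3.47, 6.05 and 3.09 in high fat, against 3.09, 3.96 and 3.09 in chow (difference 0.82, SE 0.63) and miR-218-5p, encoded within the Slit genes, read 4.12, 6.59 and 5.15 in high fat, against 4.48, 4.89 and 5.93 in chow (difference 0.19, SE 0.63). The high signal was again on high fat replicate 2.

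The Dlk1-Dio3 cluster had 16 of 35 listed members tested, 11 positive and 5 negative, with a median of 0.17, and 16 members were detected on none of the 6 arrays. miR-494-3p read 12.37, 12.42 and 12.99 in high fat, against 13.31, 10.57 and 13.63 in chow (difference 0.09, SE 0.90). miR-370-3p differed by 0.47 (SE 0.81). miR-376c-3p read 3.09, 7.98 and 6.71 in high fat, against 3.09, 8.48 and 7.61 in chow (difference -0.47, SE 1.32). It lay at the floor on both replicate 1 arrays and well above it on the other 4, whichever the diet. The cluster that runs across miR-17 and miR-92a, a growth-promoting group that Myc induces, with its paralogs had 13 of 14 tested, 6 positive, 5 negative and 2 at 0, with a median of 0. miR-19b-3p differed by 0.44 (SE 0.87) and miR-25-3p by 0.23 (SE 0.46).

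The list of entries taken as rich in G and C or as coming from ribosomal RNA had 10 of 17 tested, 9 positive and 1 negative, with a median of 0.45. miR-5126, all of whose bases are G or C (100%), read 13.20, 11.18 and 12.35 in high fat, against 12.31, 11.82 and 10.96 in chow (difference 0.55, SE 0.49). miR-5100 read 11.72, 12.68 and 11.48 in high fat, against 10.07, 12.33 and 12.40 in chow (difference 0.36, SE 0.74). Chow replicate 1 was the highest chow array for miR-5126 and the lowest for miR-5100. The negative member was miR-3963, with 14.58, 15.32 and 14.26 in high fat, against 15.999, 15.25 and 15.17 in chow and a difference of -0.75 (SE 0.43). Its sequence is not rich in G and C, with 47.4% against a median of 54.5% over the tested miRNAs with a sequence.

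With each of the 6 arrays left out in turn, the median kept its sign for 5 lists. It lay between -1.61 and -0.35 for adipose, -1.14 and -0.50 for hypoxia (1 miRNA), -0.59 and -0.12 for let-7, 0.02 and 0.46 for Dlk1-Dio3 and 0.09 and 0.81 for the GC-rich list. The median over all tested miRNAs stayed positive too, between 0.15 and 0.27. Processing did turn signs, to 0.31 for hypoxia and 0.71 for let-7 with no scaling. It was -0.47 for Dlk1-Dio3 with normexp and -0.05 for the GC-rich list with the percentile over all miRNAs. The other lists, those of muscle, endothelium, blood and immune cells among them, had a median of 0 or of the other sign without at least 1 array.

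**Figure D3:**
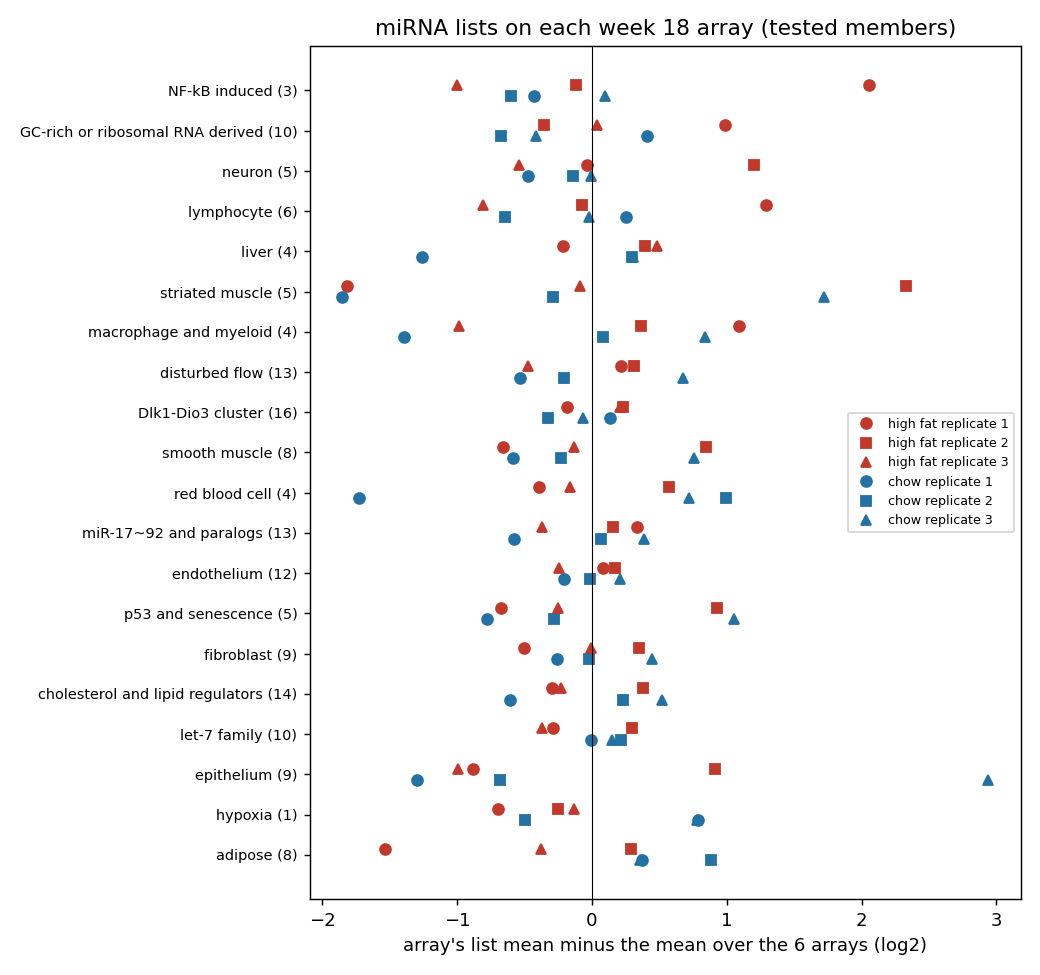
Each row is 1 list of miRNAs (number tested in brackets), ordered by its median difference, and each symbol 1 week 18 array, red for high fat (upper in each row) and blue for chow (lower), its shape the replicate number. The x axis is the list's mean log2 signal on that array minus its mean over the 6 arrays. Red and blue mix in nearly every row, the endothelial list is tightest, and chow replicate 3 stands alone in the epithelium row.

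The base composition of the miRNAs followed single arrays more closely than the diets. A mature sequence was found for 496 of the 609 tested miRNAs. The median difference, high fat minus chow, was 0.14 for 157 miRNAs with under 50% G and C, 0.25 for 167 with 50 to 60%, and 0.36 for 172 with 60% or more (Pearson r across these miRNAs 0.19, Spearman rho 0.21). miRNAs are not independent replicates, and they share the arrays, so no p is given.

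Array by array the relation ran both ways within each diet. Among 182 miRNAs detected on all 6 arrays, r with the diet difference was 0.28, and the r between G and C content and the deviation from the mean of the 6 arrays was 0.42, -0.59 and 0.32 in high fat, against 0.50, -0.40 and -0.57 in chow. For the 73 of these with 60% or more, the median deviation was 1.06, -0.78 and 0.34 in high fat, against 0.89, -1.04 and -0.54 in chow. High fat replicates 1 and 3 and chow replicate 1 stood on one side, and high fat replicate 2 and chow replicates 2 and 3 on the other. The sequences of miR-144-3p (30.0% G and C) and miR-5126 (100%) lie far apart in G and C content. miR-144-3p was detected on 1 high fat and 2 chow arrays, so it is not among the 182. miR-144-3p read 3.09, 6.89 and 5.63 in high fat, against 3.09, 7.42 and 7.06 in chow, at the floor on both replicate 1 arrays. miR-5126 was highest on high fat replicate 1, with 13.20, and next on high fat replicate 3 and chow replicate 1, with 12.35 and 12.31.

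**Figure D4:**
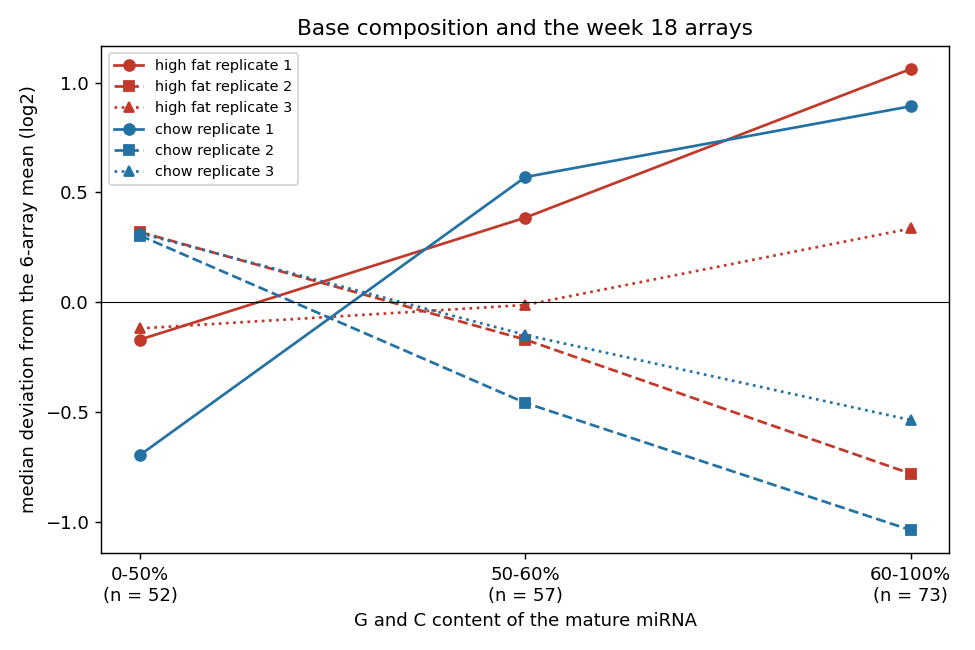
Median deviation from the mean of the 6 week 18 arrays (log2, y axis) for miRNAs detected on all 6 arrays, in 3 ranges of G and C content (x axis), with 1 line per array, red for high fat and blue for chow. For miRNAs with 60% or more, high fat replicates 1 and 3 and chow replicate 1 lie at 1.06, 0.34 and 0.89, and high fat replicate 2 and chow replicates 2 and 3 at -0.78, -1.04 and -0.54.

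The diet difference at week 18 was set against that at the other weeks, which share no array with it by label, though high fat replicate 3 is near-identical to an array of week 30. At week 6, 18 miRNAs were called lower in high fat (2.96% of 609) and 0 higher. At week 30, 0 were called by limma (smallest adjusted p 0.167), with 114 under 0.05 before adjustment. All arrays of week 6 lay on slide 1, but at week 30 the 3 chow arrays lay on slide 2 and the 3 high fat arrays on slide 3. Diet and slide therefore cannot be told apart at week 30, nor in the comparison of week 18 with it. The week 18 difference exceeded that of week 6 for 7 miRNAs and was below it for 0 (limma interaction contrast, adjusted p under 0.05, 1.15% of 609). Against week 30 it differed for 0 miRNAs (0%, limma, lowest adjusted p 0.605), with 21 under 0.05 before adjustment. Leaving out 1 array of either week moved those 21 to between 3 and 102, the ends being without chow replicate 1 of week 18 (3, as without chow replicate 2 of week 30) and without high fat replicate 1 of week 18.

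In all 7 the chow signals of week 6 were the high ones. miR-128-3p, a miRNA of neurons and lymphoid cells, read 4.79, 6.48 and 6.09 in week 6 high fat, against 9.62, 9.79 and 9.06 in week 6 chow. At week 18 it read 5.28, 5.46 and 3.82 in high fat, against 3.52, 4.53 and 5.24 in chow. Its difference was 4.13 higher at week 18 than at week 6 (SE 0.74, adjusted p = 0.00522). The week 18 signals of both diets lay below all 3 chow signals of week 6.

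miR-181b-5p, which dampens NF-kB signalling in endothelium by repressing importin alpha 3, read 4.91, 6.07 and 6.53 in week 6 high fat, against 8.76, 8.68 and 8.09 in week 6 chow. At week 18 it read 5.67, 5.14 and 5.06 in high fat, against 4.9995, 4.42 and 4.999 in chow. These did not overlap, but 5.06 lay only just above 4.9995, and 2 arrays of each diet detected it. The change was 3.16 (SE 0.58, limma, adjusted p = 0.00522). miR-181d-5p, of the same seed, changed by 2.41 (SE 0.56, adjusted p = 0.0379), a call that was lost in 21 of 27 alternative settings, against 7 of 27 for miR-181b-5p and for miR-128-3p. It read 4.61, 3.51 and 4.55 in high fat, against 3.43, 3.12 and 3.89 in chow at week 18. miR-181a-1-3p, from another hairpin of the family, stood well above background on 0 of 6 arrays at week 18 and on 3 of 3 chow arrays at week 6, where it read 6.93, 7.05 and 6.29. Its change was 3.63.

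miR-363-3p, from the X-linked paralog of that cluster of miR-17 and miR-92a, lay at the floor on all 6 arrays of week 18, against 5.42, 5.61 and 4.98 in week 6 chow. miR-466p-5p and miR-466a-5p were at or near the floor on the 6 arrays of week 18 as well. Their changes were 2.24, 2.54 and 1.99. These 3 and miR-181a-1-3p, 4 of the 7, came through the detection filter by week 6 chow alone, so they had to be high there, and their calls support nothing. Values at the floor also add no spread, which makes their SEs small. The probes of miR-466a-5p agreed poorly over the arrays of the study as well (lowest correlation 0.24). The next in order, miR-5709-3p, miR-7029-3p and miR-3064-5p, did not pass, with changes of 2.64 (adjusted p = 0.0706), 1.55 (adjusted p = 0.0706) and 2.24 (adjusted p = 0.0969). The count of 7 depended on the settings, as it was 0 with normexp, 0 with the percentile over all miRNAs and 1 with quantile normalization. It was 5 with the near-identical chow replicates 1 and 2 of week 6 averaged, and 1 with high fat replicates 2 and 3 of week 30 averaged as well.

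Against week 30 the 5 miRNAs with the smallest p all had a higher difference at week 18 and did not pass. miR-204-5p, encoded within Trpm3, was the one of them detected on all 6 arrays of week 18, with 5.38, 5.87 and 6.32 in high fat, against 5.33, 5.77 and 5.61 in chow. Its difference was 0.28 (SE 0.35) at week 18 and -0.92 at week 30. miR-669d-3p, miR-297a-3p, miR-467e-3p and miR-6395 had differences of 0.66 (SE 0.58), 0.44 (SE 0.54), 0.35 (SE 0.71) and 0.90 (SE 0.72) at week 18, and their signals lay between 3.09 and 6.33. In miR-142a-3p the difference was -0.82 at week 6, 0.70 at week 18 and -2.41 at week 30, and its change between weeks 18 and 30, 3.11, did not pass (adjusted p = 0.605).

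**Figure D5:**
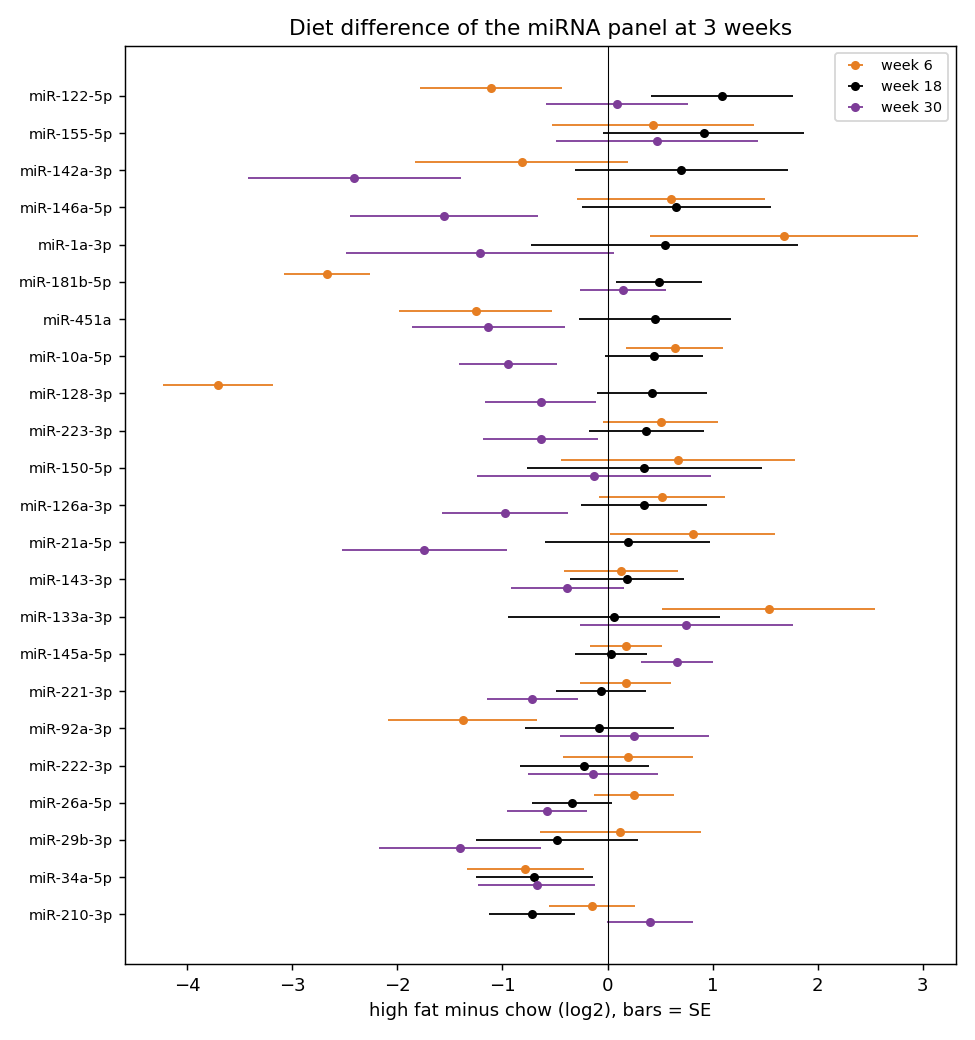
Diet difference, high fat minus chow (log2, x axis), of the 23 tested miRNAs of a vascular and blood cell panel, at week 6 (orange), week 18 (black) and week 30 (purple), ordered by the week 18 value, with bars of 1 SE. The week 18 points lie between -0.72 for miR-210-3p and 1.09 for miR-122-5p, and miR-128-3p and miR-181b-5p stand apart at week 6 with -3.70 and -2.67.

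Weighting the arrays by how well they fitted their group changed the count at week 18. With limma's array weights 19 of 609 miRNAs passed, 15 higher and 4 lower in high fat. The weights leaned on 1 array of each diet, 1.34 for high fat replicate 3 against 0.157 and 0.311 for the other high fat arrays, and 3.81 for chow replicate 3 against 0.121 and 0.413 for the other chow arrays. The smallest adjusted p was that of miR-203-3p, with a weighted difference of -4.23 (adjusted p = 0.0182). Of the named miRNAs, miR-6401 (1.71), miR-6395 (2.24) and miR-182-5p (-1.44) passed as well. Both favoured arrays stand apart in other ways given above, the near-identity of high fat replicate 3 with an array of week 30 and the epithelial signals of chow replicate 3.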

How the data were processed

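Total RNA was extracted with TRIZOL and hybridised to 20 single-colour arrays. Per the file headers, the deposited values are intensities after Agilent's background correction, and per the submitters' processing notes the images were read with Agilent Feature Extraction 11.5.1. From the 58594 features of an array, 2164 controls were dropped, as were 1370 to 2199 spots that carried an outlier mark, before averaging by probe and then by miRNA (4415 probes, 1881 miRNAs). Among 608 tested miRNAs with several probes, 19 had probes that correlated at under 0.5, miR-148b-3p and miR-466a-5p among them. Scaling used each array's 75th percentile, taken across 192 miRNAs that no array failed to detect. A floor was set at 3.09 on the log2 scale, the median over arrays of the 1st percentile of detected signals. The test took the 609 miRNAs that all arrays of 1 or more groups detected, and was run with limma 3.58.1 in R 4.3.3, with 7 groups and 13 residual degrees of freedom, and adjusted by Benjamini and Hochberg. The number of arrays, not a read depth, limits the precision. A bound ("at least") sets the mean of the detected diet against the lowest signal counted as detected on the arrays of the other.

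The members, the 20 lists and the panel were chosen with earlier results of these data known. The miRNAs named are the 10 higher and 10 lower with the smallest p, the panel, list members and the miRNAs with the smallest p in the comparisons between weeks. The scripts were tested on simulated data. The replicate numbers were checked for pairing: deviations from the group means correlated at 0.67, 0.61 and -0.08 for numbers 1, 2 and 3, so they were not taken as pairs. Alternatives covered background correction, scaling, floor, filter, slide, replicate number, array weights, the position conflict and each array left out.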

Additional observations from a re-analysis of the deposited data

Results flagged for a closer look

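For 7 miRNAs the test of the diet difference itself between week 18 and week 6 passed (limma, Benjamini-Hochberg). The differences between the weeks, on the log2 scale, were 4.13 for miR-128-3p, 3.63 for miR-181a-1-3p, 3.16 for miR-181b-5p, 2.54 for miR-466p-5p, 2.41 for miR-181d-5p, 2.24 for miR-363-3p and 1.99 for miR-466a-5p. At week 18 the diet differences of these 7 lay between 0 and 0.75. The chow arrays 1 and 2 of week 6 are near-identical (SD 0.28), and with these averaged 5 passed; with a near-identical pair of week 30 high fat arrays averaged as well, 1 passed. Of the 7, miR-181a-1-3p, miR-363-3p, miR-466p-5p and miR-466a-5p came through the detection filter by week 6 chow alone, so the choice of miRNAs fixed that they were high there. The call of miR-181d-5p was lost in 21 of 27 alternative settings.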

How the results depend on the processing

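At week 18, 0 miRNAs passed in 22 of 23 alternatives and 19 with array weights, and 7 of 90 named miRNAs kept their sign throughout. The alternatives are not all separate checks. The deposited series values equal those of the main setting. Slide as a block, slide 2 alone and leaving out high fat replicate 3 gave the same week 18 differences. Averaging the near-identical arrays changed no week 18 array. The count of 7 between weeks 18 and 6 was 0 with normexp, 0 with the percentile over all miRNAs, 0 among miRNAs detected on all arrays, 1 without scaling, 1 with quantile normalization, 1 with the near-identical arrays of weeks 6 and 30 averaged (5 with the week 6 pair alone), 86 with array weights and 3 without 3 doubted arrays (this and the week 6 pair alone were chosen after seeing the data). Leaving out 1 array gave 5 to 8 (week 6 and week 30 arrays left out after seeing the data). Between weeks 18 and 30 the count of 0 was 2 without a filter, 1 with slide as a block and 68 with array weights, and 0 with each array left out. With the replicate block the counts were 0 at week 18, 1 between weeks 18 and 6 and 0 between weeks 18 and 30; the numbers share no stated source. The change of miR-466a-5p was -0.068 with normexp, the reverse of 1.99. The cause was not tested in any of these. The SE of a difference, median 0.61, limits what 3 arrays a diet can show, and signals at the floor have no order.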
